A study of Mus musculus with 4 samples.

Results

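Robo1, Robo2, Robo3, Robo4, Slit1, Slit2, Slit3, Dcc and Ntn1 are the Robo and Dcc receptors and their Slit and netrin ligands. Most of them are known for guiding commissural axons, the axons that cross the midline of the nervous system. These 9 genes, of 32285 in the deposited tables, were taken by symbol, from a list drawn up with earlier results of these data known. The study dissected the aorta-gonad-mesonephros region (AGM), where the first haematopoietic stem cells arise, from C57BL/6J mouse embryos at E11.5 of gestation. CD31+ cells were sorted by TMRM, a dye that accumulates in mitochondria with a high membrane potential, into an MMPlow and an MMPhigh fraction. Each fraction has 2 single-cell libraries (MMPlow 1 and 2, MMPhigh 1 and 2), and no other genotype, agent or age is labelled. The series asks which transcription goes with the split of stem cell function by mitochondrial activity.

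Slit proteins are secreted ligands that repel growing axons through Robo receptors, while Ntn1 (netrin-1) attracts axons through its receptor Dcc. Floor plate cells at the ventral midline make netrin-1 and Slits, and Robo3 is the divergent Robo of commissural neurons that lowers their response to Slit until the midline is crossed. Robo4 is the endothelial member of the family, known for its part in vascular stability, and Slits also act outside the nervous system, in kidney and muscle among other places.

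In GRCm38, GENCODE vM21 places Robo4 on chromosome 9 from 37401897 to 37415115 on the plus strand and Robo3 from 37415669 to 37433246 on the minus strand. The pair lies tail to tail with 553 bases between the genes. Robo1 and Robo2 share chromosome 16, from 72308306 to 73046095 on the plus strand and from 73891839 to 74411825 on the minus strand, 845.743 kb apart. The sequences below, from RefSeq with the GRCm38.p6 build, lie just upstream of the start sites of Robo3 and Robo4. They are shown because these adjacent genes had opposite cell distributions in the values that follow. Capitals mark matches to GGGCGG (a GC box) and GGAAG (an ETS core), searched on both strands.
Robo3, chr9:37433256-37433425, minus strand: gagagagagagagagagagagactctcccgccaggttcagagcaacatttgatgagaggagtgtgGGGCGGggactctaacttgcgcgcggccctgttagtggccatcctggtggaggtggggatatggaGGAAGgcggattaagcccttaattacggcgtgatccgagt
Robo4, chr9:37401722-37401891, plus strand: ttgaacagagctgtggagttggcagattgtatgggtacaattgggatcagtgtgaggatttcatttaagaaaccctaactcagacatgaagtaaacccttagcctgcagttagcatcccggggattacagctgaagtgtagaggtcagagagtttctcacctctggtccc
The Robo3 window held 1 match to each motif and the Robo4 window held none. Of 32851 RefSeq windows of the same 170 bases, 19.5% held GGGCGG and 48.8% held GGAAG on either strand, so either match is common.

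After filtering, 15617, 18359, 4134 and 3265 cells remained in MMPlow 1, MMPlow 2, MMPhigh 1 and MMPhigh 2, with median depths of 3076, 3638, 3797.5 and 22841 UMIs (unique molecular identifiers, each a counted RNA molecule). MMPhigh 2 thus stood apart in depth. Between 14 and 369 barcode sequences were shared by any pair of libraries. Clustering without the 9 genes gave 30 clusters, of which 22 fell into 13 classes named from marker lists. Endothelial-like cells made up 44.2% and 42.3% of the MMPlow libraries but 0.290% and 0.337% of the MMPhigh libraries, or 12 and 11 cells. Neuron-like cells made up 1.43% and 1.27% of MMPlow and 25.2% and 23.7% of MMPhigh. Pecam1, which encodes the sorted protein CD31, was measured in the neuron-like cells at 54.5, 62.3, 9.44 and 2.45 CPM (UMIs of the gene per 1000000 UMIs of the summed cells) in the order MMPlow 1, MMPlow 2, MMPhigh 1, MMPhigh 2, so the gene of the sorted protein was low in them. Their summed level of 12 neuron markers was 6751, 7271, 7098 and 8521 CPM. Part of the neuron-like cells fell into subclusters led by genes of blood, liver, endothelial or muscle cells, at 16.6%, 13.3%, 57.3% and 10.1% of the class. In neural progenitor-like cells this share was 29.2%, 24.8%, 28.8% and 18.3%. These are called mixed subclusters: 3 or more of their 10 leading genes came from the marker lists of such cells. Levels below include them unless stated.

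Robo3 was the most neuron-restricted of the receptors. In neuron-like cells its level was 391, 372, 436 and 520 CPM, in the same order of libraries. Neural progenitor-like cells had 96.5, 104, 108 and 81.4 CPM, below the neuron-like level in 4 of 4 libraries. Every other named class stayed at or below 17.8 CPM in every library. After each cell was thinned to 2000 UMIs, 36.3%, 31.8%, 38.1% and 45.2% of neuron-like cells held a Robo3 UMI. The shares were 0.197%, 0.0569%, 2.90% and 2.05% in macrophage-like cells, a class that should lack the gene. Its values are taken as background, and the source of its UMIs was not tested. No cell was left out by thinning, and without it 39.9%, 38.6%, 50.0% and 64.2% of neuron-like cells held a Robo3 UMI. Median depths were 4015, 4756, 3778 and 19104 UMIs in neuron-like cells and 2856.5, 3309.5, 3815 and 22268.5 UMIs in macrophage-like cells. Without the mixed subclusters neuron-like Robo3 was 302, 373, 542 and 571 CPM, and 29.6%, 29.7%, 40.5% and 46.7% of the thinned cells held a UMI. Neural progenitor-like Robo3 was then 49.8, 67.4, 113 and 76.6 CPM. With the mixed subclusters the neuron-like cells supplied 60.6%, 59.3%, 85.3% and 90.9% of all Robo3 UMIs. Without them they held 247 of 652, 377 of 755, 2797 of 4281 and 9216 of 11899 Robo3 UMIs. The totals still count the cells left out, so this share could only fall.

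Dcc separated neuron-like and neural progenitor-like cells from the other classes. Neuron-like cells had 5153, 6289, 7722 and 10291 CPM and neural progenitor-like cells had 7750, 8005, 10475 and 12856 CPM. The ranges overlapped across libraries, though within each library the neuron-like level was the lower, in 4 of 4. Without the mixed subclusters this order turned in MMPlow 2 and MMPhigh 1. Neuron-like Dcc was then 5382, 6524, 9925 and 11306 CPM, and neural progenitor-like Dcc 6422, 5963, 8952 and 11468 CPM. Both lay above the next named class, glial or neural crest-like cells, at 505 to 1027 CPM, and above the unnamed cells, at up to 1454 CPM. Mesenchymal-like cells had 136, 168, 207 and 158 CPM. Endothelial-like Dcc, at 16.2, 14.5, 5.22 and 38.6 CPM, did not exceed the macrophage-like values of 13.4, 15.8, 106 and 87.1 CPM by more than the spread between libraries and is read as background.

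Robo4 was highest in endothelial-like cells among the classes compared here. Endothelial-like cells had 66.0, 67.4, 73.0 and 80.8 CPM, the last pair from 14 and 23 UMIs. An unnamed cluster of 1072 cells led by the arterial genes Gja4, Vegfc and Gja5 had 75.2 CPM over the libraries together, and a cluster of 651 cells led by Stab2, a gene of sinusoidal endothelium, had 63.0 CPM. Neuron-like cells had 12.9, 12.5, 1.31 and 1.10 CPM of Robo4. Macrophage-like cells, which should lack the gene, had 16.2, 10.9, 0.107 and 0 CPM. The share of thinned neuron-like cells with a Robo4 UMI was 4.04%, 3.004%, 0.481% and 0.258%, against 3.29%, 2.45%, 0% and 0% of macrophage-like cells and 12.97%, 13.5%, 8.33% and 18.2% of endothelial-like cells. Without thinning the neuron-like shares were 5.83%, 5.58%, 0.962% and 2.58%. The exact 95% binomial intervals of the thinned neuron-like and macrophage-like shares overlapped in 4 of 4 libraries, and the MMPlow neuron-like values are read as background. In MMPhigh the neuron-like levels came from 11 and 23 UMIs and the macrophage-like levels from 1 and 0 UMIs. The neuron-like levels thus lay above that class, though the intervals of the shares overlapped. These neuron-like cells also held UMIs of all 12 endothelial markers, and the source of their Robo4 UMIs was not tested. Without the mixed subclusters the MMPhigh neuron-like levels were 1.36 and 1.30 CPM.

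Robo1 and Robo2 had wider distributions. Neuron-like Robo1 was 1264, 1341, 1670 and 2118 CPM, overlapping the neural progenitor-like values of 1062, 1274, 1681 and 2026 CPM. Mesenchymal-like cells followed at 521, 534, 555 and 809 CPM, and endothelial-like cells had 261, 289, 177 and 425 CPM. The endothelial-like class nevertheless held 44.6% and 43.8% of all Robo1 UMIs in the MMPlow libraries, where its cells are many, and 0.150% and 0.181% in MMPhigh. Robo2 levels of these classes overlapped across libraries, though within each library the neuron-like level was above the neural progenitor-like level, in 4 of 4. Neuron-like cells had 355, 449, 393 and 444 CPM, neural progenitor-like cells 172, 309, 252 and 421 CPM and mesenchymal-like cells 291, 314, 223 and 528 CPM. In endothelial-like cells Robo2 was 20.3, 24.5, 0 and 52.7 CPM, the value of 0 in 12 cells allowing up to 15.6 CPM. An unnamed cluster of 1367 cells led by Unc5c and Wt1 had 1028 CPM of Robo2 over all libraries. Its best list was the mesenchymal one, with 10 of 12 markers raised, but the mesenchymal-like class does not hold it.

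The Slit genes differed in their cells. Slit1 was highest in the neural classes, with 69.3, 51.5, 63.8 and 73.0 CPM in neuron-like cells, 74.7, 52.5, 83.0 and 65.0 CPM in neural progenitor-like cells and at most 3.06 CPM in mesenchymal-like cells. Of the other named classes, epithelial or mesonephric-like cells reached 36.7 CPM in 1 library and muscle progenitor-like cells had up to 14.3 CPM. Slit2 was 781, 919, 858 and 973 CPM in neuron-like cells and 374, 450, 448 and 580 CPM in mesenchymal-like cells. Epithelial or mesonephric-like cells ranged from 145 to 1335 CPM across libraries, with means of 167 CPM in MMPlow and 1256 CPM in MMPhigh. The MMPhigh libraries held 19 and 15 of these cells, and the difference was not tested. Slit3 was highest in mesenchymal-like cells, at 576, 608, 583 and 614 CPM, above the neuron-like values of 243, 302, 196 and 228 CPM in 4 of 4 libraries. Ntn1, the attractant, was scarcely detected in endothelial-like cells, at 2.82, 2.97, 0 and 0 CPM. It was 35.6, 27.4, 27.0 and 56.9 CPM in neuron-like cells and 137, 145, 264 and 286 CPM in mesenchymal-like cells, and the class with the highest median was muscle progenitor-like cells, at 270 to 302 CPM.

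**Figure D1:**
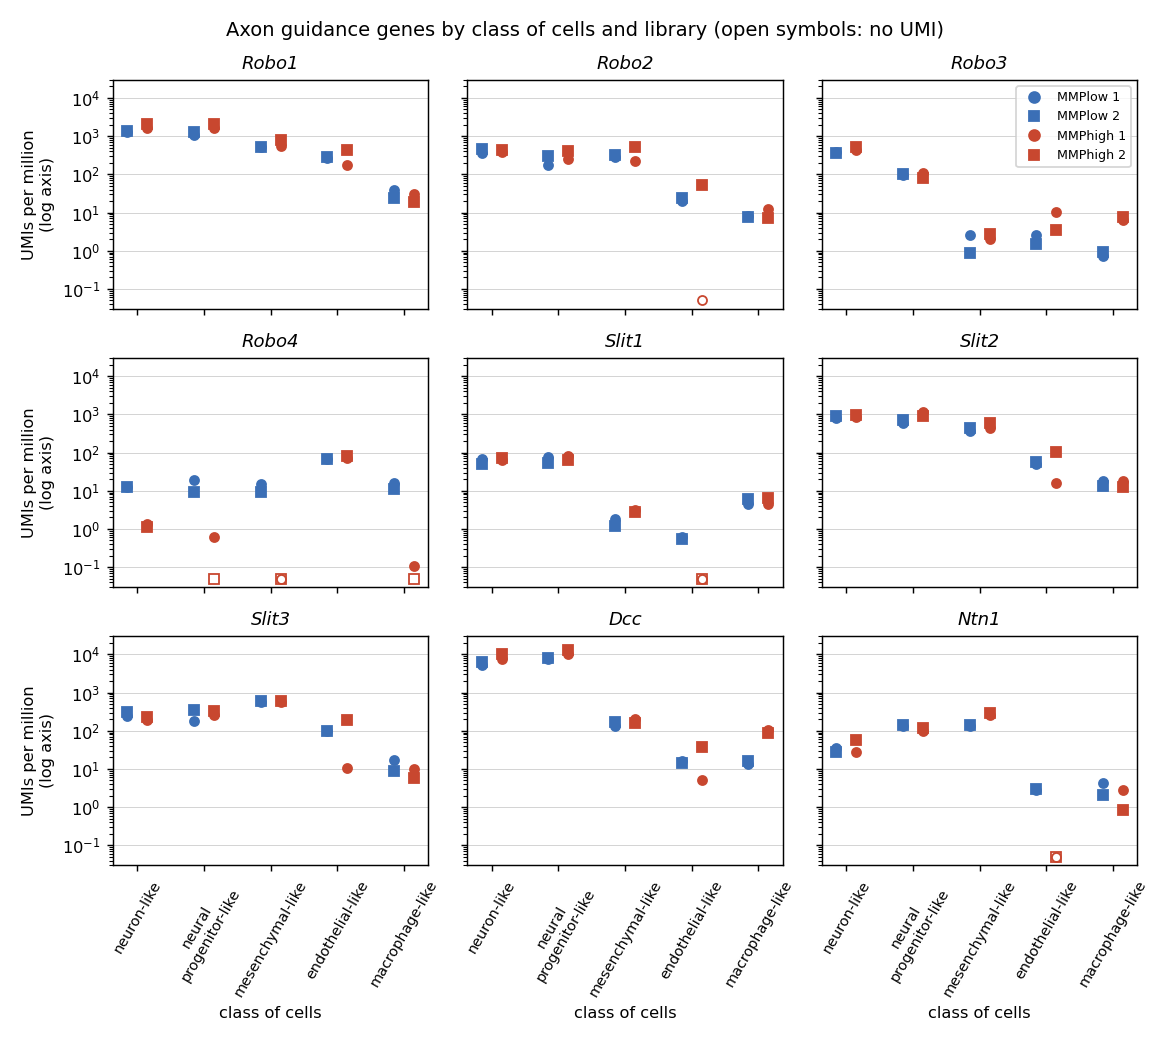
Levels of the 9 genes by class. Each panel is a gene, the y axis is CPM of the summed class on a log axis and each point is a library. Robo4 stands highest in endothelial-like cells, Robo3 in neuron-like cells, and the neuron-like and neural progenitor-like points of Dcc lie above 5000 CPM.

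The classes were then compared in a single edgeR quasi-likelihood fit of the summed UMIs with the library as a term. A gene is called changed or different where its Benjamini-Hochberg adjusted p over all genes tested was under 0.05. The clusters were made without the 9 genes, and cells of a library share their source. Between neuron-like and neural progenitor-like cells 2 of the 9 genes were called, against 16.3% of all genes tested (10.1% higher, 6.25% lower). Robo3 was higher in neuron-like cells by 2.23 ± 0.35 on the log2 scale (SE; adjusted p = 8.8e-06). Ntn1 was lower, with a log2 difference of -1.57 ± 0.40 (adjusted p = 0.0041), which was -1.39 without MMPlow 2 (adjusted p = 0.112) and -1.01 with clustering at resolution 2, which gives more clusters than the resolution of 1 used here (adjusted p = 0.114). Dcc, at -0.32 ± 0.46 (adjusted p = 0.75), and Slit1, at 0.019 ± 0.28 (adjusted p = 0.99), were not called.

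Against mesenchymal-like cells, 7 of 9 genes were called in neuron-like cells, against 44.2% of all genes (24.6% higher, 19.5% lower). Robo3 (log2 difference 7.89 ± 0.50), Dcc (5.55 ± 0.56), Slit1 (5.02 ± 0.37), Robo1 (1.56 ± 0.42) and Slit2 (1.09 ± 0.45) were higher in neuron-like cells. Ntn1 (-2.28 ± 0.39) and Slit3 (-1.16 ± 0.39) were lower. At resolution 0.5 neither was called, with Ntn1 at -0.87 (adjusted p = 0.107) and Slit3 at -0.99 (adjusted p = 0.064), and at resolution 2 Slit3 was -0.63 (adjusted p = 0.218). The adjusted p-values of Slit2 and Slit3 were 0.047 and 0.013, and leaving out MMPlow 1, MMPlow 2 or MMPhigh 1 took both genes past the threshold, to between 0.078 and 0.156 for Slit2 and between 0.054 and 0.059 for Slit3. Neural progenitor-like cells had 5 of 9 genes called against mesenchymal-like cells, where 30.5% of genes were called (16.1% higher, 14.4% lower). Dcc (5.87 ± 0.57), Robo3 (5.67 ± 0.51), Slit1 (5.003 ± 0.37) and Robo1 (1.37 ± 0.42) were higher and Slit3 (-0.99 ± 0.39, adjusted p = 0.049) was lower. Without MMPlow 1 or MMPlow 2 this count was 3, as Robo1 and Slit3 were no longer called. All genes called were then 4212 of 15809 and 3560 of 15653. Slit3 was also lost without MMPhigh 1 (adjusted p = 0.122) and without the mixed subclusters (-0.75, adjusted p = 0.16).

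All 9 genes differed between endothelial-like and neuron-like cells, where 52.9% of all genes did (23.8% higher, 29.1% lower). Robo4 was higher in endothelial-like cells by 3.72 ± 0.80 (SE) on the log2 scale (adjusted p = 0.00015), and the other 8 were lower, from Dcc (-8.43 ± 0.67) and Robo3 (-7.23 ± 0.51) to Slit3 (-1.36 ± 0.42, adjusted p = 0.069 without MMPlow 2). Against mesenchymal-like cells the endothelial-like cells had 7 of 9 genes called, with 32.2% of all genes (15% higher, 17.2% lower). Robo4 was again higher (4.47 ± 0.82), and Ntn1 (-6.01 ± 0.56), Robo2 (-3.70 ± 0.63), Slit2 (-2.89 ± 0.52), Dcc (-2.88 ± 0.56), Slit3 (-2.53 ± 0.43) and Slit1 (-1.51 ± 0.52) were lower. Slit1 was lost without MMPlow 1, MMPlow 2 or MMPhigh 2 (adjusted p between 0.077 and 0.108), and Robo1 was called lower without MMPhigh 2 (-0.94, adjusted p = 0.044). The Robo4 value against mesenchymal-like cells was 6.63 without MMPlow 1, 6.43 without MMPlow 2 and 2.86 without MMPhigh 2, all called. Against neuron-like cells it was 5.01, 5.16 and 2.50 without the same libraries, also called.

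Over all cells of a library, the MMPhigh fraction carried more RNA of the neural guidance genes. Dcc was 240 and 257 CPM in MMPlow and 2306 and 2974 CPM in MMPhigh, a log2 fold of 3.44 ± 0.16 (SE, n = 2 against 2 libraries; adjusted p = 5.8e-07 in edgeR). Robo3 was 10.7 and 8.72 CPM in MMPlow and 110 and 124 CPM in MMPhigh (log2 fold 3.63 ± 0.12, adjusted p = 1.3e-07). Robo4 went the other way, from 39.5 and 36.6 CPM to 0.870 and 0.553 CPM (-5.82 ± 0.17, adjusted p = 1.2e-07). In bulk sums of this kind, more cells of a type and more RNA per cell cannot be told apart, and the neuron-like share differed between the fractions as given above.

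Robo1 was 258 and 264 CPM in MMPlow and 578 and 696 CPM in MMPhigh (log2 fold 1.32 ± 0.12). Robo2 was 85.7 and 89.9 against 189 and 231 CPM (1.29 ± 0.11). Among the ligands Slit1 was 3.94 and 3.13 against 20.8 and 23.5 CPM (2.69 ± 0.13), Slit2 107 and 118 against 332 and 342 CPM (1.61 ± 0.10) and Ntn1 22.1 and 21.1 against 41.6 and 54.5 CPM (1.19 ± 0.12). Slit3 was 125 and 119 against 130 and 151 CPM and was not called (0.24 ± 0.09, adjusted p = 0.059), though it was called without MMPhigh 1 (adjusted p = 0.012), with the stricter cell filter of 5000 UMIs and 2000 genes (adjusted p = 0.0047) and at 10 CPM in 2 sums (adjusted p = 0.048). It was also called with doublets kept (adjusted p = 0.034) and with the doublet caller's own calls removed (log2 fold 0.30, adjusted p = 0.029), the handling first planned, under which 9 of 9 genes were called. In all, 7 of 9 genes rose, with 27.4% of all genes called higher, and 1 fell, with 26.6% called lower. In either direction 8 of 9 genes were called, against 53.9% of all genes.

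**Figure D2:**
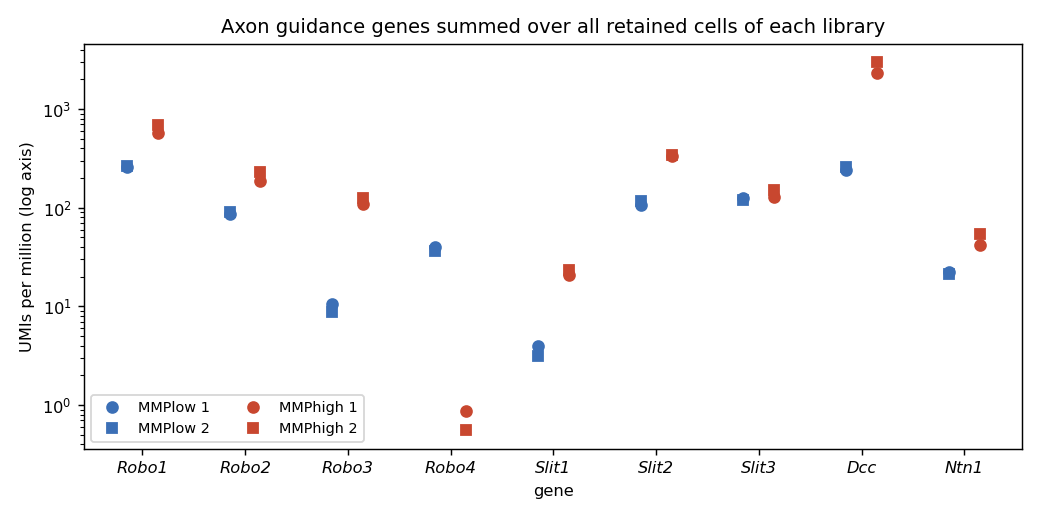
Levels of the 9 genes over all retained cells. The y axis is CPM on a log axis, and each point is a library of the MMPlow or MMPhigh fraction. The points of Dcc rise from 240 and 257 to 2306 and 2974 CPM, and those of Robo4 fall from 39.5 and 36.6 to under 1 CPM.

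Within neuron-like cells fewer genes were called between the fractions. Robo4 alone was called, 1 of 9 genes, against 2.68% of all genes (0.865% higher, 1.81% lower), at -3.36 ± 0.54 on the log2 scale (adjusted p = 0.0081). The summed level of 12 endothelial markers in the same cells fell with it, from 663 and 698 CPM in MMPlow to 75.8 and 19.5 CPM in MMPhigh, with none of the 12 at 0 in any library. Its part in the Robo4 result was not tested. The MMPlow Robo4 level, a mean of 12.7 CPM beside 13.5 CPM in macrophage-like cells, is read as background. Neural progenitor marker sums were 153, 167, 276 and 293 CPM and muscle progenitor sums 54.5, 44.9, 166 and 243 CPM. Megakaryocyte and erythroid sums were lower in both MMPhigh libraries, and macrophage and mesenchymal sums overlapped between the fractions. The part of these sums was not tested. Dcc, at 5153 and 6289 against 7722 and 10291 CPM, had a log2 fold of 0.69 ± 0.25 (adjusted p = 0.17), and Robo1 had 0.58 ± 0.20 (adjusted p = 0.16), with both MMPhigh libraries above both MMPlow libraries. Robo3 had 0.36 ± 0.17 (adjusted p = 0.29) and Robo2 0.092 ± 0.18 (adjusted p = 0.84). Slit1, Slit2, Slit3 and Ntn1 lay between -0.33 and 0.48.

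The count changed under several settings. With DESeq2 Dcc (0.73, adjusted p = 0.0066) and Robo1 (0.61, adjusted p = 0.017) were called as well, and with no low-count filter in edgeR they were also called (adjusted p = 0.036 and 0.041). Without the subclusters led by genes of other cell types, 5 of 9 genes were called, against 17.1% of all genes: Dcc (0.87), Robo3 (0.75) and Robo1 (0.72) were higher in MMPhigh, and Robo4 (-3.31) and Slit3 (-0.63) lower. The neural cells, of which this class is a part, were spread differently over their subclusters in the fractions. The inhibitory neuron-like subcluster led by Evx1os and Pax5 made up 0.563%, 0.675%, 4.97% and 12% of them. These were 3, 4, 64 and 132 cells, pooled at 12054 CPM of Dcc. The shares are of all subclustered neural cells, not of the neuron-like class. Changes within a neuron type and a different mix of types cannot be told apart in these sums. By library, Dcc was 8656, 10158, 11762 and 11707 CPM in the subcluster led by Lhx9 and Barhl2. In that led by Hbb-y and En1 it was 5974, 7112, 8916 and 9201 CPM. The fractions overlapped in the subcluster led by Atoh1 and Barhl1, at 15566, 24225, 22879 and 24830 CPM. Differences within subclusters were not tested. Without MMPhigh 1 as a whole, 5 were called, against 16.1%: Ntn1 (0.89), Dcc (0.87), Robo1 (0.73) and Robo3 (0.48) were higher and Robo4 lower. Without MMPhigh 2, Dcc (0.46, adjusted p = 0.040) was called beside Robo4. The Ntn1 fold rested on MMPhigh 2, the deepest library, at 56.9 CPM against 27.0 CPM in MMPhigh 1. These levels include the mixed subclusters. Without them Ntn1 was 33.0 and 23.7 CPM in MMPlow 1 and 2, and 24.2 and 31.1 CPM in MMPhigh 1 and 2.

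In neural progenitor-like cells 4 of 9 genes were called, against 12% of all genes (4.34% higher, 7.69% lower). Robo1 (0.72 ± 0.17, adjusted p = 0.016), Slit2 (0.70 ± 0.16, adjusted p = 0.016) and Dcc (0.62 ± 0.17, adjusted p = 0.032) rose in MMPhigh. Slit2 was 592 and 692 CPM in MMPlow and 1130 and 893 CPM in MMPhigh, with no overlap. The summed level of 12 neuron markers in this class also differed between the fractions, at 1869 and 2259 CPM in MMPlow and 3458 and 4427 CPM in MMPhigh, all 12 with UMIs in every library. Its part in these results was not tested. Robo4 was called lower, with 17 and 12 UMIs (19.5 and 9.41 CPM) in MMPlow and 1 and 0 UMIs in MMPhigh, beside an endothelial marker sum of 1031, 717, 20.4 and 17.7 CPM, and 6 of the 12 endothelial markers, Emcn, Tek, Tie1, Kdr, Flt1 and Cdh5, were at 0 in MMPhigh 1. The macrophage-like cells of the same MMPlow libraries, which should lack the gene, had 16.2 and 10.9 CPM of Robo4, so these MMPlow values are read as background. At resolution 2 Robo1 (0.44, adjusted p = 0.0997), Slit2 (0.14, adjusted p = 0.745) and Dcc (0.39, adjusted p = 0.106) were not called, and Robo3 was called lower (-0.65, adjusted p = 0.013), while its fold was 0.70 with the stricter cell filter and 0.67 without the mixed subclusters, neither called. The Robo1, Slit2 and Dcc calls were lost without MMPlow 1 and without MMPlow 2, each of which leaves a single MMPlow library. With each library left out, Robo1 ran from 0.57 to 0.87, Slit2 from 0.55 to 0.86 and Dcc from 0.46 to 0.78. Without MMPhigh 1 Robo2 was called as higher (0.86). Without the mixed subclusters 3 were called, against 9.08% of all genes.

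In mesenchymal-like cells Ntn1 was called higher in MMPhigh and Robo4 lower, 2 of the 7 genes tested, against 17.8% of all genes (6.58% higher, 11.2% lower). Ntn1 was 137 and 145 CPM in MMPlow and 264 and 286 CPM in MMPhigh, a log2 fold of 1.01 ± 0.11 (adjusted p = 5.3e-05). The class joins a pair of clusters, and the one led by the smooth muscle genes Acta2 and Tagln made up 36.4% and 35.9% of it in MMPlow and 12.2% and 8.06% in MMPhigh. In the larger cluster alone Ntn1 was 187, 204, 299 and 314 CPM (log2 fold 0.68, called), and Slit3 was also called there (0.52), against 10.3% of all genes. Robo4 was 15.3 and 9.17 CPM in MMPlow and 0 in both MMPhigh libraries. The MMPlow values are near those of macrophage-like cells (16.2 and 10.9 CPM) and are read as background. They stood beside endothelial marker sums of 891, 802, 73.5 and 69.1 CPM, whose part was not tested. Robo3 and Slit1 were too low to be tested, with at most 3.06 CPM. Without MMPhigh 1, which leaves a single MMPhigh library, the folds were 0.67 for Robo1, 0.86 for Robo2 and 0.55 for Slit2. The Dcc fold was 0.50 without MMPhigh 2.

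Endothelial-like cells gave no called gene among the 8 tested, against 1.23% of all genes (0.482% higher, 0.747% lower), in edgeR; 0 of the 8 had an unadjusted p under 0.05, and DESeq2 called 0. Robo4 had a log2 fold of 0.19 ± 0.27 (adjusted p = 0.77) and Robo1 0.17 ± 0.25 (adjusted p = 0.80). The MMPhigh sums of this class hold 12 and 11 cells. Slit3 was 100.6 and 100.5 CPM in MMPlow, 10.4 CPM in MMPhigh 1 (2 UMIs) and 189.7 CPM in MMPhigh 2 (54 UMIs). It was called lower without MMPhigh 2 (-3.25) and higher without MMPhigh 1 (0.87).

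**Figure D3:**
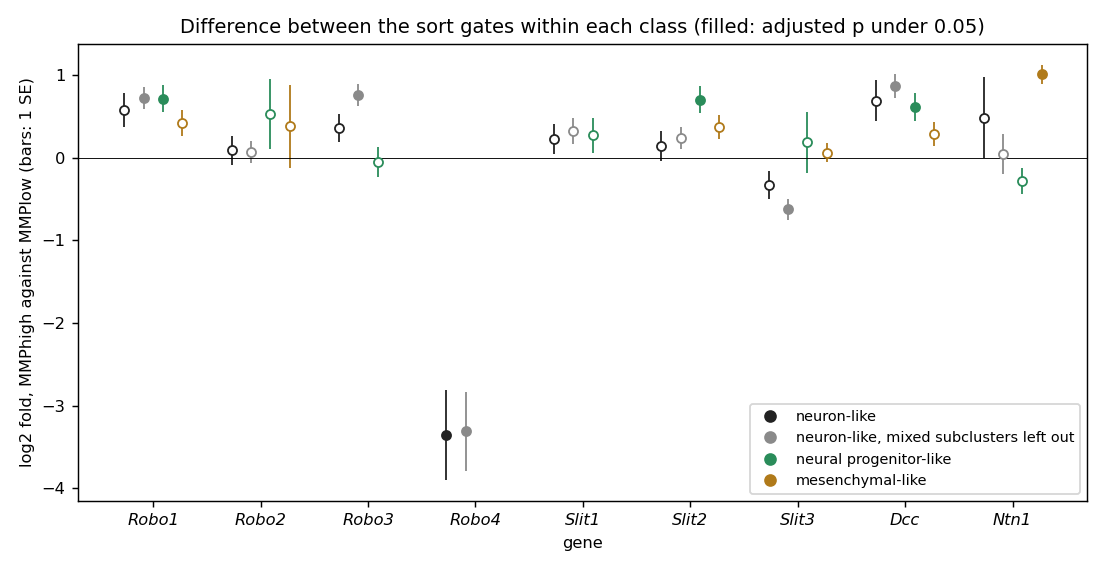
Log2 folds of MMPhigh against MMPlow within neuron-like, neural progenitor-like and mesenchymal-like cells. Points are edgeR estimates and bars are 1 SE on either side; Robo4 is left out of the classes where MMPhigh held 0 or 1 UMI. Ntn1 stands at 1.01 in mesenchymal-like cells and at -0.28 in neural progenitor-like cells.

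The neural cells were divided further, again without the 9 genes, into 27 subclusters of 3515 cells, 8 of them mixed by the rule of 3 leading genes given above. The values for subclusters are pooled CPM and carry no test. The floor plate-like subcluster, 16 cells marked by Shh and Spon1, held the ligands: Ntn1 was 1578, Slit1 468, Slit2 3119 and Slit3 2832 CPM, while the receptors Dcc and Robo1 were 41.5 and 71.7 CPM. With 4, 5, 3 and 4 cells per library, it gives no comparison between the fractions. Motor neuron-like cells (63 cells) were the other high Slit source. Their Slit2 was 4142, 4046, 4269 and 4106 CPM and their Slit3 was 2888, 3914, 3431 and 3396 CPM by library, close together across both fractions. They had 1101 CPM of Robo2 and 55.2 CPM of Robo3.

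Robo3 and Robo2 differed in level between subclusters, with a Pearson's r of -0.22 across the 18 unmixed subclusters of at least 30 cells, a weak value given as a description. The inhibitory neuron-like subcluster led by Cartpt and marked by Pax2 (168 cells) had 1248 CPM of Robo3 and 55.0 CPM of Robo2. By library its Robo3 was 830, 1568, 1189 and 1267 CPM. An unnamed subcluster led by Hbb-y and En1 (257 cells) had 27.8 CPM of Robo3 and 946 CPM of Robo2, the latter 593, 898, 846 and 1014 CPM by library. En1 marks V1 interneurons of the spinal cord, and Hbb-y is an embryonic globin gene of erythroid cells. A subcluster led by Lmx1b and Tlx3 (149 cells), genes of dorsal excitatory interneurons, had 918 CPM of Robo3 and 141 CPM of Robo2. The excitatory neuron-like subcluster led by Lhx9 and Barhl2 (136 cells), transcription factors of dI1 commissural neurons, had both, at 738 CPM of Robo3 and 545 CPM of Robo2. Robo2 was high and Robo3 low in the subcluster led by Gata3 and Tal1 (74 cells, 619 CPM of Robo2 and 11.6 CPM of Robo3).

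Dcc was highest in a subcluster with little Robo3. The cells led by Atoh1 and Barhl1 (88 cells), the first of which is expressed in the progenitors of dI1 neurons, had 23032 CPM of Dcc and 47.1 CPM of Robo3. Their Dcc was 15566, 24225, 22879 and 24830 CPM by library, the highest of the subclusters with at least 10 cells in each of the 4 libraries. The Lhx9 and Barhl2 subcluster had 11498 CPM of Dcc. Glial or neural crest-like cells (181 cells) had 834 CPM of Dcc and 2.89 CPM of Robo3. Sympathoadrenal-like cells (33 cells), the precursors of sympathetic neurons and chromaffin cells, had 1290.5 CPM of Robo2 and 1163 CPM of Slit3.

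**Figure D4:**
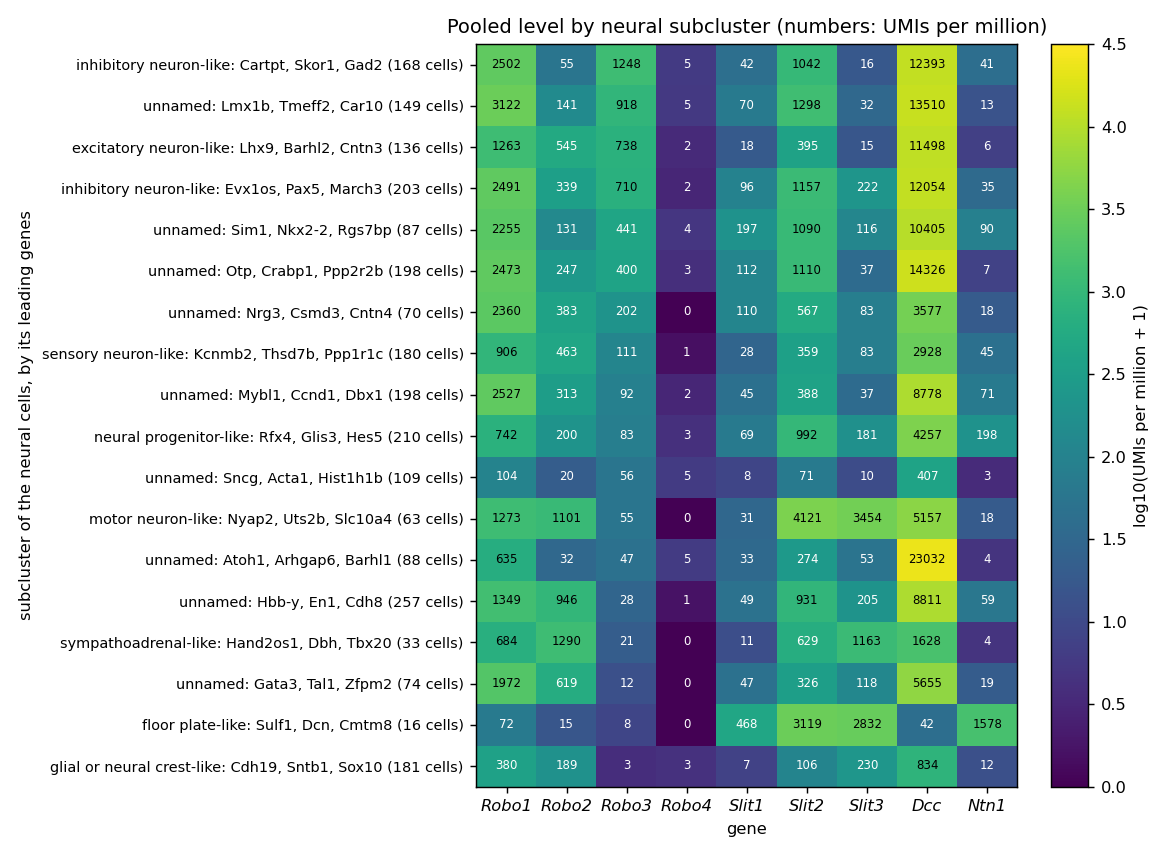
Levels of the 9 genes in 18 of the 19 neural subclusters that were not mixed. Rows are subclusters, columns are genes and colour is pooled CPM on a log scale. The floor plate-like row is high for Ntn1 and the Slit genes and low for Dcc, and the motor neuron-like row is high for Slit2 and Slit3.

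Robo2 and Robo3 were next compared cell by cell. Among neuron-like cells thinned to 2000 UMIs, those with a Robo3 UMI held a Robo2 UMI in 8.64%, 6.76%, 20.5% and 12.6% of cells in MMPlow 1, MMPlow 2, MMPhigh 1 and MMPhigh 2. Cells with no Robo3 UMI held one in 38.0%, 36.5%, 34.8% and 42.2%. The exact 95% binomial intervals did not overlap in any of the 4 libraries (in MMPhigh 1, 16.6% to 24.8% against 31.1% to 38.6%). Without the mixed subclusters the shares were 9.09%, 6.67%, 16.7% and 10.8% in cells with Robo3 and 38.2%, 36.6%, 39.4% and 42.9% in cells without, and the intervals again did not overlap in 4 of 4 libraries. Robo1 did not show this: its share was 81.5%, 91.9%, 86.1% and 94.0% in cells with Robo3 and 78.9%, 74.2%, 71.1% and 84.0% in cells without. Cells of a library are not replicates, so these intervals cover counting error only.

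**Figure D5:**
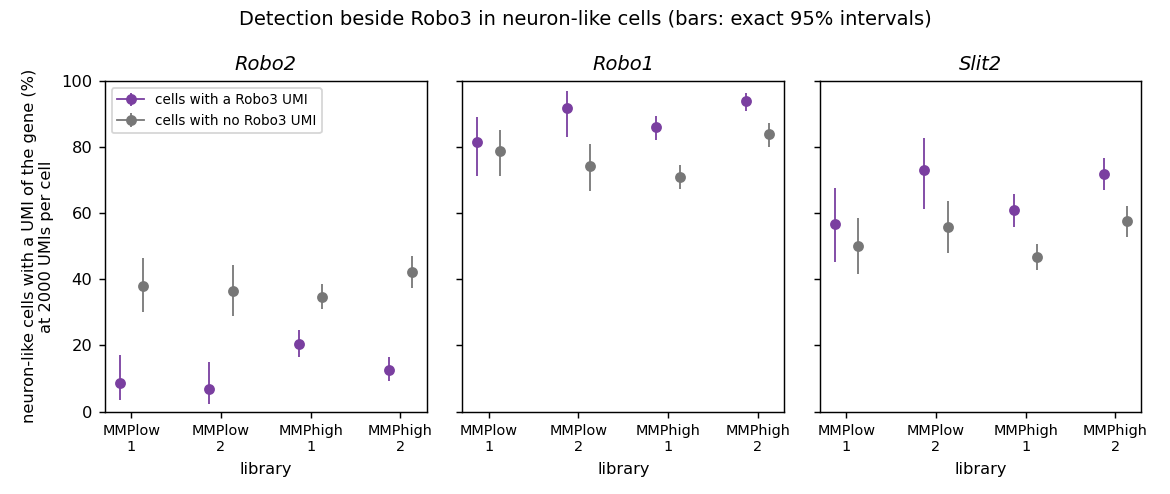
Share of neuron-like cells with a Robo2, Robo1 or Slit2 UMI, 1 panel each, split by whether the cell held a Robo3 UMI. The y axis is percent of cells after thinning to 2000 UMIs, each point is a library and bars are exact 95% binomial intervals. The share with Robo2 is 6.76% to 20.5% in cells with Robo3 and 34.8% to 42.2% in cells without.

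Partners of these genes were counted from lists of 18 Slit-Robo partners, 15 netrin pathway genes and 17 further commissural guidance genes. Over all cells, where 27.4% of genes were called higher and 26.6% lower, 9 Slit-Robo partners rose and 2 fell. Nell2, a Robo3 ligand, rose by 3.36 and the GTPase-activating protein gene Srgap3 by 2.17, while Srgap1 and Srgap2 fell by 1.27 and 0.68 on the log2 scale. Of the netrin list 8 rose and 4 fell, among them Dscam, a netrin receptor (2.82), Trim9 (2.52), the endothelial netrin receptor Unc5b (-2.19) and Ptk2 (-1.30). Of the commissural list 13 rose and 1 fell, with Barhl2 (4.21) and the axonal adhesion gene Cntn2 (3.66) the most raised and the semaphorin receptor Nrp2 (-1.60) the one that fell. The median log2 folds of the lists were 0.18, 0.54 and 2.38, beside 0.014 over all genes tested.

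Within neuron-like cells, where 2.68% of all genes were called, none of the 17 Slit-Robo or 14 netrin genes tested was, and Boc, a Shh receptor of commissural axons (1.82), and Barhl2 (0.99) rose in MMPhigh. Without the mixed subclusters, where 17.1% of all genes were called, 5 of 17 Slit-Robo partners and 8 of 16 commissural genes were higher and 2 of 14 netrin genes lower. In neural progenitor-like cells Atoh1 (1.47), Barhl1 (1.21) and Pak1 (0.51) rose and Srgap2 fell by 0.60, among 4 genes raised and 1 lowered over the lists, beside 12% of all genes called. Without the mixed subclusters none of 17 Slit-Robo partners was called there, so the Pak1 and Srgap2 calls were lost, and 3 of 16 commissural genes were called higher, beside 9.08% of all genes. In mesenchymal-like cells, beside the rise of Ntn1, the netrin receptor gene Unc5d rose (0.95), and Ntng1 (-1.52) and Dscam (-1.94) fell, 1 and 2 of 12 netrin genes tested. Of 9 commissural genes tested Cdon, a Shh receptor, rose (0.57) and Nrcam fell (-1.22), and none of 17 Slit-Robo partners was called, beside 17.8% of all genes. In endothelial-like cells Unc5b rose by 1.46, 1 of 11 netrin genes tested, and none of the 18 Slit-Robo and 8 commissural genes was called, beside 1.23% of all genes. Between classes, Nell2 was higher in neuron-like than in mesenchymal-like cells by 6.11 and Dscam by 4.502, and 14 of 18 Slit-Robo partners, 10 of 14 netrin genes and 14 of 17 commissural genes were called there, beside 44.2% of all genes. Between neuron-like and neural progenitor-like cells 4, 6 and 11 genes of the lists in the same order were called, with Dscam (4.07) and L1cam (3.31) higher in neuron-like cells and Shh (-3.54) lower, beside 16.3% of all genes. Between neural progenitor-like and mesenchymal-like cells 8, 9 and 15 were called, beside 30.5% of all genes. Endothelial-like cells had 12, 13 and 15 called against neuron-like cells (52.9% of all genes) and 11, 12 and 9 against mesenchymal-like cells (32.2%), and Unc5b was 2.86 higher than in neuron-like cells.

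Across the 30 clusters, 12006 genes were ranked by the likeness of their pattern to each member, as Pearson's r of log2(CPM + 10); clusters share libraries and depth, and r is a description. Robo3 was most like Myt1l (r = 0.985), a neuronal transcription factor gene that is also in the neuron marker list, then Fstl5, Ttc9b, Scrt1 and Cacng2. Robo4 was most like Arhgef15 (r = 0.990), then Bcl6b, Mmrn2, Tmem204 and Ushbp1. Dcc was most like Map2 (r = 0.958), a gene of neuronal microtubules, and Robo1 most like Npas3 (r = 0.963). The closest gene to Slit1 was Gm14697 (r = 0.958), to Slit2 Ift81 (r = 0.921), to Slit3 Mmp16 (r = 0.930), to Robo2 Pygo1 (r = 0.946) and to Ntn1 Sertad4 (r = 0.907).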

How the data were processed

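The matrices that the authors deposited hold raw UMI counts, and all 4 libraries were used. Per the file headers they came from Cell Ranger 7.0.1; the submitters' processing notes name Cell Ranger 2.1.1 and mm10. Per the labels' protocols the 10x 3' v3 kit was used with at most 10000 cells per lane, and the counting of strand is not given in the sources used here. The labels do not say that libraries came from separate embryos or litters, so p-values measure only the spread between libraries.

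Barcodes with at least 2000 UMIs, 1000 genes and under 25% mitochondrial UMIs were kept. The doublet caller (Scrublet in scanpy 1.11.5) marked 2, 996, 0 and 68 cells in MMPlow 1, MMPlow 2, MMPhigh 1 and MMPhigh 2, which is uneven, so the 6% of cells with the highest doublet scores were removed from each library, a choice made after seeing the data; removal of the caller's own doublets was kept as an alternative. Log-normalised values of 2000 variable genes, leaving out the 9 members, their partner lists and mitochondrial genes, gave 30 components, 15 neighbours and Leiden clusters at resolution 1. A cluster took the name of the marker list with the highest mean log2 fold. That mean had to reach 0.5 and exceed the next list's by 0.25, with 3 or more markers raised. A cluster stayed unnamed where its 10 leading genes held more markers of another list or 3 genes of further lists. Those further lists were written after the clusters were seen. They left unnamed a cluster of 231 cells with 10 of 12 neuron markers raised, whose leading genes included Afp and Alb. A cluster of 1626 cells led by Col2a1 also stayed unnamed. Its means for the sclerotome or cartilage list and the mesenchymal list, 1.94 and 1.69, were too close. The mesenchymal-like class thus holds neither these cells nor the 1367 led by Unc5c and Wt1, and covers only part of the mesenchyme. UMIs were summed per library, or per class and library with at least 10 cells, and tested with edgeR 4.0.16 in R 4.3.3 (TMM, filterByExpr, robust quasi-likelihood F test, two-sided, Benjamini-Hochberg over all genes). The SE of a log2 fold is its size divided by the square root of F. With 2 libraries against 2, an exact permutation test cannot go below p = 0.333, so none is given. Intervals of shares are exact binomial (Clopper-Pearson) at 95%, and a value of 0 allows up to 3 UMIs of the total; both cover counting error only. On simulated counts with the all-cell means, 66% and 91% of genes changed by log2 folds of 1 and 2 were recovered among 20382 genes, with 100 genes changed at each size, and 24 unchanged genes were also called. For neuron-like sums it was 39% and 75% among 13635, with 17 unchanged genes called. Levels are not corrected for gene length, so genes are not compared with each other.

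All 9 members are named; of each partner list the counts of called genes are given, with some of the most raised and lowered called genes. The members and lists were chosen with earlier results of these data known. Alternatives were RLE scaling, DESeq2 1.42.0, other low-count, cell and mitochondrial filters, other doublet handling, other resolutions, a replicate block and leaving out each library. Promoters were found for 6 of the 9 members in the RefSeq table; windows end 80 bases before the RefSeq start. 1 neural subcluster is not reported here.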

Additional observations from a re-analysis of the deposited data

Results flagged for a closer look

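The Ntn1 difference between the fractions was not alike in mesenchymal-like and neural progenitor-like cells. Ntn1 was 137 and 145 CPM in MMPlow and 264 and 286 CPM in MMPhigh in mesenchymal-like cells, and 137 and 138 CPM in MMPlow and 102 and 115 CPM in MMPhigh in neural progenitor-like cells. An interaction term in edgeR, the log2 fold in mesenchymal-like cells minus that in neural progenitor-like cells, was 1.25 ± 0.16 (SE; adjusted p = 9.1e-06, with 5.14% of 13175 genes called). With the larger mesenchymal cluster alone it was 0.92 ± 0.17 (adjusted p = 0.0014, with 2.99% of genes called). Ntn1 rose in mesenchymal-like cells and was not called in neural progenitor-like cells (-0.28 ± 0.16). The difference was lost with clustering at resolution 2, at 0.34 ± 0.28 (adjusted p = 0.71, with 2.61% of genes called), where the neural progenitor-like fold was 0.45. It was 1.14 with the members among the clustering genes and 1.39 without the mixed subclusters, both called. With each library left out it was 1.17 to 1.35. The interaction term was not among the planned tests, and it and these alternatives were chosen after seeing the data. The other class pairs tested were not called for Ntn1: mesenchymal-like minus neuron-like was 0.50 ± 0.54 (adjusted p = 0.74) and neural progenitor-like minus neuron-like was -0.69 ± 0.37 (adjusted p = 0.55). The neuron-like sums in these pairs include the mixed subclusters. Of the other members none was called over the whole classes in the mesenchymal-like minus neural progenitor-like term, where Robo1 was -0.37 (adjusted p = 0.063). Robo1 was called with the larger mesenchymal cluster alone (-0.62, adjusted p = 0.0023) and with the members among the clustering genes (-0.44, adjusted p = 0.017). Robo3 was called at resolution 2 (2.42, adjusted p = 0.010), Dcc without MMPhigh 1 (-0.75, adjusted p = 0.0016) and Slit2 without MMPhigh 2 (-0.72, adjusted p = 0.0015).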

How the results depend on the processing

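Over all cells 8 of 9 members were called, and 8 or 9 in each setting tried. Of the values of single members called at first, the Ntn1 difference between classes included, 553 kept direction and call, 39 kept direction only and none reversed. Of those not called at first, 466 kept direction and stayed uncalled, 52 became called and 33 reversed. A member that a setting filtered out is not counted in that setting. Of the interaction terms run, only the Ntn1 term called at first is counted. In neuron-like cells the 1 called member, beside 365 of 13635 genes, became 3 with no low-count filter (1085 of 23400) and with DESeq2 (452 of 14326). The count was also 3 at resolution 0.5 (1877 of 14427) or 2 (987 of 11220) and with the members among the clustering genes (1566 of 12860). It became 4 with the stricter cell filter (813 of 12813) and 5 without the mixed subclusters (2128 of 12466), chosen after seeing the data. It was 0 at 10 CPM in 2 sums (304 of 9835) and moved in some fits with a library left out. In neural progenitor-like cells the 4, beside 1319 of 10959 genes, became 2 at resolution 2, beside 918 of 9713. Robo1, Slit2 and Dcc were lost there and Robo3 was newly called at -0.65. With no low-count filter the count was 5, beside 1881 of 20690 genes, with Robo2 newly called at 0.60. It also moved with a library left out. In mesenchymal-like cells the 2, beside 2244 of 12642 genes, became 4 with no low-count filter (2909 of 21848) or the stricter cell filter (1591 of 11443). The count became 1 at 10 CPM in 2 sums (1710 of 9970) and 8 at resolution 0.5 (2990 of 15058). It also moved with a library left out. Leaving out a library gave 0 to 1 in endothelial-like cells, 1 to 2 between neuron-like and neural progenitor-like cells and 3 to 5 between neural progenitor-like and mesenchymal-like cells. The other class contrasts ranged from 5 to 7, 8 to 9 and 6 to 7. All genes called in these class contrasts ranged from 1158 to 2160, 3374 to 4212, 5449 to 6123, 6239 to 7557 and 3297 to 4613. The cause was not tested.

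Reversed values were all of members not called at first. For neuron-like cells they were Slit2 at -0.011 (resolution 2) and Ntn1 at -0.57 (resolution 0.5). For neural progenitor-like cells Robo3 was 0.011 with no low-count filter, 0.70 with the stricter filter and 0.67 without the mixed subclusters, Slit1 was -0.078, -0.11 and -0.061 with the stricter filter, at resolution 2 and without the mixed subclusters, and Slit3 was -0.050 and Ntn1 0.45 at resolution 2. Mesenchymal-like Slit3 was -0.15 at resolution 2. Between neuron-like and neural progenitor-like cells Slit1 was -0.053 with the stricter filter, Slit3 0.27 at resolution 2 and Dcc 0.11 without the mixed subclusters. Robo2 was -0.45 between neuron-like and mesenchymal-like cells at resolution 0.5 and 0.013 between neural progenitor-like and mesenchymal-like cells with the stricter filter, where Robo4 was -0.042 (-0.059 without the mixed subclusters). With a library left out, neuron-like Robo2 ran from -0.044 to 0.31 and Ntn1 from -0.19 to 0.89, neural progenitor-like Slit3 from -0.21 to 0.78 and Robo3 from -0.23 to 0.16, mesenchymal-like Robo2 from -0.37 to 0.86 and Slit1 between neuron-like and neural progenitor-like cells from -0.10 to 0.12. Endothelial-like Slit2 ran from -1.75 to 0.89, Slit3 from -3.25 to 0.87, Robo1 from -0.62 to 0.58, Robo2 from -11.85 to 1.18 and Dcc from -1.53 to 1.29.

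Same-numbered libraries deviated together only weakly (correlation 0.12). With 2 libraries per fraction the value for other numbers, -0.12, is fixed by this and adds nothing. Such a value from 2 pairs does not show that the numbers pair the libraries. With the replicate block 8 members were called over all cells, 1 in neuron-like, 5 in neural progenitor-like, 2 in mesenchymal-like and 0 in endothelial-like cells. Slit3 was -0.14 in endothelial-like cells. The count of all genes called in neuron-like cells moved from 365 to 1281. In the other comparisons, in the same order, that count was 10837 of 20382, 1827 of 10959, 2202 of 12642 and 156 of 14735. Counts of all genes called moved with the setting, from 365 to between 62 and 2128 in neuron-like cells, from 1319 to between 179 and 2178 in neural progenitor-like, from 2244 to between 955 and 3072 in mesenchymal-like and from 181 to between 25 and 470 in endothelial-like cells. All 996 cells that the caller marked in MMPlow 2, and its 2 and 68 in MMPlow 1 and MMPhigh 2, were among the cells removed by score, and class names exist only for retained cells, so other doublet handling was run on all-cell sums only. The stricter cell filter and the 10% mitochondrial limit left under 10 endothelial-like cells in MMPhigh 1, so the fractions were not compared within that class under them. Resolution 0.5 gave no neural progenitor-like class, so its comparisons were not run there.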
